A study of Homo sapiens with 16 samples.

Results

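The 10 genes described here make, regulate and break down the polyamines putrescine, spermidine and spermine. They were chosen by symbol, with no rule on measured values, but with earlier results of these data known. They are the enzymes of polyamine synthesis (ODC1, AMD1, SRM, SMS) and breakdown (SAT1, SMOX, PAOX). The rest are the antizymes and antizyme inhibitor that control ODC1 protein (OAZ1, OAZ2, AZIN1). All 10 were found among the 20531 entries of the count table. LNCaP cells, an established line of androgen-sensitive prostate cancer cells, were transfected with nonsense (NS) siRNA as control or with a pool of siRNAs against SLIRP, an RNA-binding corepressor of nuclear receptors. After a day the medium was replaced with serum-free medium that held ethanol vehicle (Veh) or dihydrotestosterone (DHT), an androgen, at 1 nM, and RNA was taken a day later. Each of the 4 groups (the control groups NS-Veh and NS-1nM DHT, the knockdown groups SLIRP-Veh and SLIRP-1nM DHT) was sequenced in 4 libraries of this single line. The comparisons ask how loss of SLIRP, androgen, and androgen after loss of SLIRP changed the messenger RNA of these genes.

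Polyamines are small positively charged molecules that bind RNA, DNA and chromatin and are needed for cell growth. Ornithine decarboxylase (ODC1) makes putrescine, AdoMet decarboxylase (AMD1) supplies the aminopropyl donor, and spermidine synthase (SRM) and spermine synthase (SMS) add aminopropyl groups to give spermidine and spermine. Antizymes (OAZ1, OAZ2) bind ODC1 protein and send it to the proteasome, and the antizyme inhibitor AZIN1 binds antizyme in place of ODC1. Spermidine/spermine acetyltransferase (SAT1) marks polyamines for export or for oxidation by PAOX, and SMOX oxidises spermine directly. Prostate epithelium is known for an unusually high content of polyamines, above all spermine, and ODC1 is a classical androgen-responsive gene of the gland.

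The level of ODC1 RNA rose and that of SAT1 RNA fell in cells with SLIRP siRNA, with or without DHT. The level of SMS rose with SLIRP siRNA in DHT, and that of OAZ2 fell by a small amount when vehicle and DHT were pooled. With NS siRNA, DHT raised SRM. The OAZ2 call was lost in 22 of 29 alternatives and the SRM call in 10 of 21, DESeq2 among them for both. No difference in the DHT response between the siRNAs passed the test for any member.

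Library totals lay between 436353 and 1689708 estimated counts with a median of 1091545, and the 10 genes took 0.256% to 0.325% of a library. The targeted gene, listed under its older symbol C14orf156, was at 45.1 to 63.4 CPM, the count per 1e+06 counts of the library, in the 8 NS libraries and at 1.41 to 8.04 CPM in the 8 SLIRP siRNA libraries. The 9 luminal prostate markers were all detected, at a summed 4070 to 4690 CPM in NS and 2970 to 3630 CPM in SLIRP siRNA libraries. FOLH1 had the highest level of them, at 2100 CPM in NS-Veh and 1320 CPM in SLIRP-Veh. Between SLIRP siRNA and NS cells, both in DHT, KLK3, KLK2 and TMPRSS2 were called higher and 5 markers lower. In vehicle the same comparison of siRNAs called 1 higher and 5 lower, and over all 16 libraries 0 higher and 4 lower. Both basal markers were at 0, as were 2 of 3 leukocyte markers, DCN of 3 fibroblast markers (summed 11.5 to 26.3 CPM) and PECAM1 of 2 endothelial markers (summed 2.37 to 17.4 CPM). The 4 proliferation markers summed to 168 to 318 CPM in NS-Veh and 345 to 518 CPM in NS-1nM DHT, and with SLIRP siRNA to 1040 to 1260 CPM in vehicle and 1340 to 1590 CPM in DHT. The 5 interferon response genes summed to 573 to 839 CPM in NS and 161 to 205 CPM in SLIRP siRNA libraries. With edgeR over all libraries 4 of 4 proliferation markers were called higher, and 4 of the 4 interferon genes tested lower. The part of these shifts in the results that follow was not tested. Libraries are treated as independent replicates as the labels number them, so p-values measure the spread between these libraries. The study took them from 2 experiments, and p-values do not measure the spread between experiments. In bulk RNA, fewer expressing cells and less RNA per cell cannot be told apart.

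Antizyme protein is made only when ribosomes shift reading frame at the stop codon that ends the first open reading frame, which polyamines promote. The site is shown because the counts below report antizyme RNA and not the frameshift. The annotation of hg19 skips 1 base at this site in both genes, in exon 2 of 5. The stretches lie at chr19:2271427-2271456 on the plus strand and chr15:64983700-64983729 on the minus strand, with the last sense codon and the stop codon in capitals. They share 29 of 30 bases and differ by G5T (OAZ1 base first, counted from the 5′ end of the stretch).
OAZ1: cctcggtggtgcTCCTGAtgcccctcaccc
OAZ2: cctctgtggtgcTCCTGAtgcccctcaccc

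RefSeq promoter windows on GRCh38.p14 were matched for 7 of the 10 genes, with 10 windows of 250 bases before a start in all. A window of ODC1 and that of SRM held the E-box CACGTG, a motif bound by MYC and MAX, which 6.34% of 35116 such windows hold. The other window of ODC1, at chr2:10448328-10448577, lies before a listed start further upstream and did not hold it. The window of ODC1 with the motif thus lies downstream of that other start. The motif is shown in capitals within 30 bases because ODC1 had the largest rise of the members with SLIRP siRNA and SRM the largest with DHT in NS cells. It begins 29 bases before a listed start of ODC1 at chr2:10448024-10448053 and 199 bases before that of SRM at chr1:11060200-11060229, both on the minus strand.
ODC1: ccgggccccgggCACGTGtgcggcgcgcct
SRM: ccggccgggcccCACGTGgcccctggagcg
No member window held TGACGTCA, AGAACA or TATAAA, searched on both strands and present in 1.65%, 12.4% and 10.7% of all windows. A match is a description of letters, and no match says nothing about a factor.

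Per kilobase of the canonical transcript, OAZ1 had the highest level of the 10 in NS-Veh, at 460 ± 21.3 CPM per kb (SD, n = 4). AMD1 followed at 267 ± 19.8, ODC1 at 179 ± 16.9 and SAT1 at 150 ± 33.3 CPM per kb, the last pair lying within their combined spread. SMS (78.7 ± 2.16), AZIN1 (75.3 ± 8.25) and SRM (74.5 ± 15.6 CPM per kb) did not differ beyond their SD, and OAZ2 was at 52.7 ± 6.31. The oxidases were near the detection limit, SMOX at 2.86 ± 1.04 and PAOX at 1.87 ± 1.45 CPM per kb. With SLIRP siRNA and DHT the order of the first 3 was the same on this scale, but SAT1, at 83.3 ± 8.09 CPM per kb, stood below SRM at 129 ± 21.5 and SMS at 118 ± 4.25. The annotation names processed pseudogenes of AMD1 (4), SRM (3), SMS (1) and OAZ1 (1), none of which the count table lists. Exons of SAT1, OAZ1, AZIN1 and PAOX each overlap another protein-coding locus on the same strand. Reads from such copies or loci cannot be told apart. Levels in the rest of the text are CPM per library and are compared only within a gene.

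**Figure D1:**
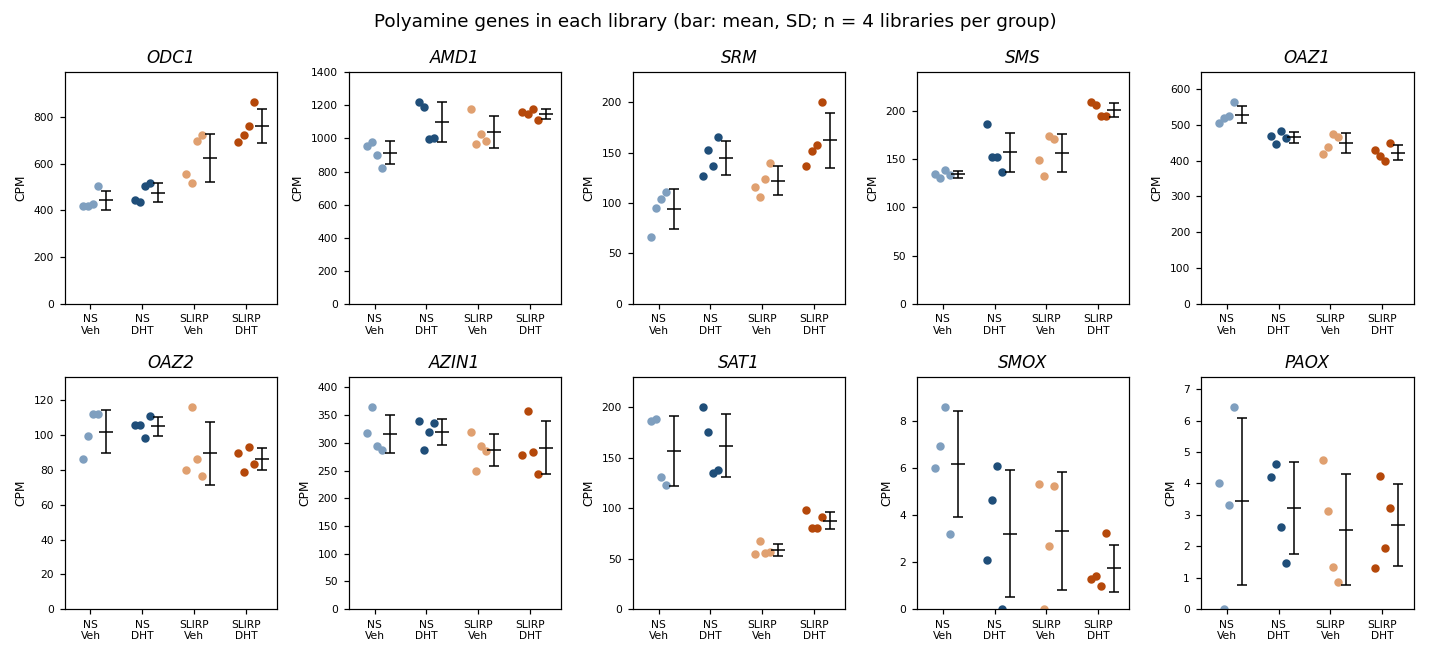
Level in CPM (linear axis from 0) of each of the 10 polyamine genes in every library of the 4 groups, with the group mean and SD beside the points. ODC1 is higher and SAT1 lower in both SLIRP siRNA groups, SAT1 with 55 to 97.8 CPM in the 8 SLIRP siRNA libraries against 123 to 200 CPM in the 8 NS libraries.

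In the comparison of all 8 SLIRP siRNA with all 8 NS libraries, 8 of the 10 genes had enough counts to be tested, and ODC1 was called higher and SAT1 and OAZ2 lower at an adjusted p of 0.01. Of 10167 genes tested, 17.8% were called higher and 17.4% lower, so the share of members called is no result about these genes as a set. The groups of 8 did not overlap for SAT1 only among the members tested, against 15.2% of all genes tested. The median log2 fold change was -0.01 over the members tested and -0.02 over all genes tested. In vehicle alone, 1 member was called higher and 1 lower, against 11.8% and 9.95% of 10684 genes, and the groups of 4 did not overlap for 3 members, against 29.3% of genes. In DHT, 2 members were called higher and 1 lower, against 12.8% and 11.6% of genes, and 4 members did not overlap, against 32.2%. The median log2 fold change of the members was 0.05 in vehicle, where that of all genes was -0.01, and -0.04 in DHT, where that of all genes was -0.02.

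ODC1 (Entrez 4953, chromosome 2, 10580094 to 10588453 on hg19, minus strand, 12 exons) encodes the first enzyme of polyamine synthesis. The NS-Veh libraries were at 418, 420, 427 and 505 CPM and the SLIRP-Veh libraries at 554, 518, 698 and 724 CPM. The NS-1nM DHT libraries were at 446, 436, 503 and 519 CPM and the SLIRP-1nM DHT libraries at 695, 725, 762 and 864 CPM. Within each treatment the SLIRP siRNA libraries all lay above the NS libraries, while over all 16 the lowest SLIRP-Veh library, at 518 CPM, lay just under the highest NS-1nM DHT library. The rise was 1.4-fold in vehicle (log2 fold change 0.48, SE 0.0967, edgeR quasi-likelihood adjusted p = 0.000144) and 1.6-fold in DHT (0.68, SE 0.0923, edgeR adjusted p = 2.47e-07). Over all 16 libraries it was 1.5-fold (log2 fold change 0.58, 95% confidence interval 0.42 to 0.75, edgeR adjusted p = 6.51e-07). By p-value ODC1 ranked 765 of the 10167 genes tested, so that many genes changed more clearly.

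SAT1 (chromosome X, 23801290 to 23804327, plus strand, 6 exons) encodes the acetyltransferase that starts polyamine breakdown. Its NS-Veh libraries were at 186, 188, 131 and 123 CPM and its SLIRP-Veh libraries at 55, 67.3, 55.2 and 57 CPM. In DHT the NS libraries were at 200, 176, 135 and 138 CPM and the SLIRP siRNA libraries at 97.8, 80.4, 80.6 and 90.9 CPM. Every SLIRP siRNA library lay below every NS library, and those of SLIRP-Veh lay below those of SLIRP-1nM DHT. SAT1 RNA was 2.56-fold lower in vehicle (log2 fold change -1.35, SE 0.152, edgeR adjusted p = 6.14e-09) and 1.84-fold lower in DHT (-0.88, SE 0.136, edgeR adjusted p = 2.41e-06). Over all 16 libraries the log2 fold change was -1.11 (95% confidence interval -1.37 to -0.86, edgeR adjusted p = 1.4e-08), which put SAT1 at rank 386 by p-value and at rank 160 from the lowest of 10167 fold changes. In the NS libraries replicates 1 and 2 were at 176 to 200 CPM and replicates 3 and 4 at 123 to 138 CPM. The log2 fold change was -1.36 within replicates 1 and 2 and -0.86 within replicates 3 and 4, with edgeR adjusted p of 1.47e-07 and 4.85e-05. In the SLIRP siRNA libraries the same 2 sets of replicates overlapped, at 55 to 97.8 CPM and 55.2 to 90.9 CPM.

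**Figure D2:**
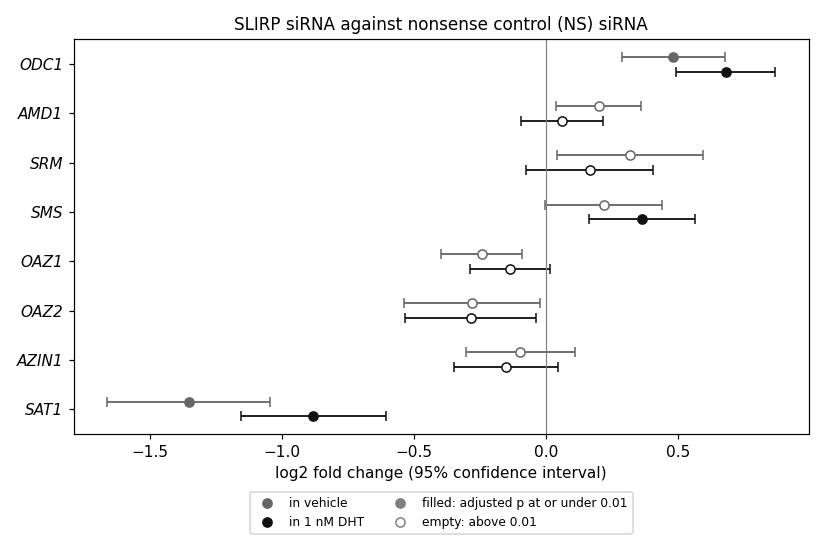
Log2 fold change of SLIRP siRNA against NS (points, with 95% confidence intervals) for the 8 members tested, in vehicle and in 1 nM DHT, where filled points passed an adjusted p of 0.01. ODC1 lies at 0.48 and 0.68 and SAT1 at -1.35 and -0.88, and SMS passed in DHT.

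SMS (chromosome X, 21958827 to 22012955, plus strand, 11 exons) encodes the enzyme that makes spermine. It was at 186, 152, 152 and 137 CPM in NS-1nM DHT and at 209, 206, 195 and 195 CPM in SLIRP-1nM DHT, without overlap. SMS rose 1.29-fold in DHT (log2 fold change 0.36, SE 0.0994, edgeR adjusted p = 0.00378). That call was lost without NS-1nM DHT replicate 4 (0.32, edgeR adjusted p = 0.0173), within replicates 1 and 2 (0.33, edgeR adjusted p = 0.0769) and with limma on the authors' normalized values (0.31, adjusted p = 0.0401). In vehicle the groups, at 130 to 139 and 132 to 174 CPM, overlapped, with a log2 fold change of 0.22 (95% confidence interval 0.00 to 0.44, edgeR adjusted p = 0.125). Over all 16 libraries the value was 0.28 with an edgeR adjusted p of 0.0109, and with treatment as a covariate 0.29 with 0.000854.

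The 2 other enzymes of synthesis did not pass the test of siRNA. AMD1 (chromosome 6, 111195973 to 111220082, plus strand), the decarboxylase of AdoMet, was at 824 to 976 CPM in NS-Veh and 968 to 1180 CPM in SLIRP-Veh. Its log2 fold change was 0.20 in vehicle (95% confidence interval 0.04 to 0.36, edgeR adjusted p = 0.0506) and 0.06 in DHT (-0.10 to 0.22, edgeR adjusted p = 0.578). SRM (chromosome 1, 11114641 to 11120077, minus strand), spermidine synthase, was at 66 to 111 CPM in NS-Veh and 106 to 140 CPM in SLIRP-Veh, with overlap. Its log2 fold change was 0.32 in vehicle (95% confidence interval 0.04 to 0.59, edgeR adjusted p = 0.0733) and 0.17 in DHT (-0.08 to 0.41, edgeR adjusted p = 0.301).

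For the regulators of ODC1 protein the differences were small, and with edgeR OAZ2 was the one called. The calls of OAZ1 and OAZ2 depended on the tool. OAZ1 (chromosome 19, 2269508 to 2273489, plus strand) was at 506, 519, 524 and 563 CPM in NS-Veh and at 417, 437, 475 and 467 CPM in SLIRP-Veh. These groups did not overlap, but the log2 fold change of -0.24 (SE 0.0754, edgeR adjusted p = 0.0113) missed the threshold, as did -0.19 over all 16 libraries (edgeR adjusted p = 0.011). DESeq2 called OAZ1 lower in both (adjusted p = 0.00849 in vehicle and 0.00953 over all 16), as did edgeR over all 16 with treatment as a covariate (adjusted p = 0.00239), and it passed in 9 of 29 alternatives in vehicle and 6 of 29 over all libraries, a threshold of 0.05 counted among them. In DHT it was -0.14 (95% confidence interval -0.29 to 0.01). The exons of OAZ1 overlap JSRP1 on the opposite strand, which has its own entry in the count table.

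OAZ2 (chromosome 15, 64979772 to 64995480, minus strand), the second broadly expressed antizyme, ranged from 86.1 to 112 CPM with a median of 106 in the 8 NS libraries, and from 76.3 to 116 CPM with a median of 84.9 in the 8 SLIRP siRNA libraries. The ranges overlapped because of SLIRP-Veh replicate 2 at 116 CPM. OAZ2 fell by 0.28 on the log2 scale over all 16 libraries (SE 0.0883), with an edgeR adjusted p of 0.00993 at the very edge of the threshold. The call was lost without any single library other than NS-Veh replicate 1 or SLIRP-Veh replicate 2, with edgeR adjusted p up to 0.0304, and in DESeq2 (adjusted p = 0.0138). In vehicle and in DHT alone its log2 fold changes of -0.28 and -0.29 did not pass (edgeR adjusted p of 0.0924 and 0.0674). AZIN1 (chromosome 8, 103838339 to 103906092, minus strand) lay between 287 and 364 CPM in NS and 244 and 358 CPM in SLIRP siRNA libraries. Its log2 fold change of -0.13 (95% confidence interval -0.29 to 0.02, edgeR adjusted p = 0.149) did not pass.

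The oxidases did not reach the filter on low counts and were not tested. SMOX had 0 to 13 counts and PAOX 0 to 8 counts per library, which is 0 to 8.59 CPM and 0 to 6.42 CPM. Pooled over a group, SMOX was at 6.23 CPM in NS-Veh (exact 95% Poisson interval 3.95 to 9.35, counting error only) and at 1.87 CPM in SLIRP-1nM DHT (0.751 to 3.85). PAOX was at 4.06 CPM in NS-Veh (2.28 to 6.7) and at 2.67 CPM in SLIRP-1nM DHT (1.28 to 4.91). The libraries of these groups overlapped for SMOX, at 3.21 to 8.59 and 0.971 to 3.22 CPM, and no test was made. A difference in PAOX was not detectable at this depth.

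Ratios of counts within a library need no scaling between libraries and set synthesis beside its control and breakdown. The ratio of ODC1 to OAZ1 was 0.826, 0.808, 0.816 and 0.897 in NS-Veh, and 0.953, 0.979, 1.04 and 1.12 in NS-1nM DHT. It was 1.33, 1.19, 1.47 and 1.55 in SLIRP-Veh, and 1.62, 1.75, 1.91 and 1.92 in SLIRP-1nM DHT. The 4 groups followed each other without overlap, from a mean of 0.837 ± 0.041 to 1.8 ± 0.145 (SD, n = 4). The ratio of SAT1 to ODC1 was 0.36 ± 0.102 in vehicle and 0.347 ± 0.0937 in DHT for NS cells, and 0.0967 ± 0.0241 in vehicle and 0.116 ± 0.0169 in DHT for SLIRP siRNA cells. The highest SLIRP siRNA value, 0.141, lay below the lowest NS value, 0.243. SAT1 to SMS likewise ran from 0.886 to 1.45 in NS and from 0.318 to 0.512 in SLIRP siRNA libraries. Other ratios overlapped between the siRNAs: AZIN1 to OAZ1 at 0.509 to 0.724 in NS and 0.545 to 0.867 in SLIRP siRNA libraries, SRM to SMS at 0.493 to 1.2 and 0.656 to 1.03, and ODC1 to AMD1 at 0.364 to 0.613 and 0.471 to 0.781. These ratios are of counts and not of molecules, since longer transcripts give more reads, and are given as descriptions without a test. They reuse the counts of the single genes above, where SAT1 already did not overlap between the siRNAs and ODC1 was called higher. Their separation is thus no further result, and how often ratios of other genes separate was not computed.

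**Figure D3:**
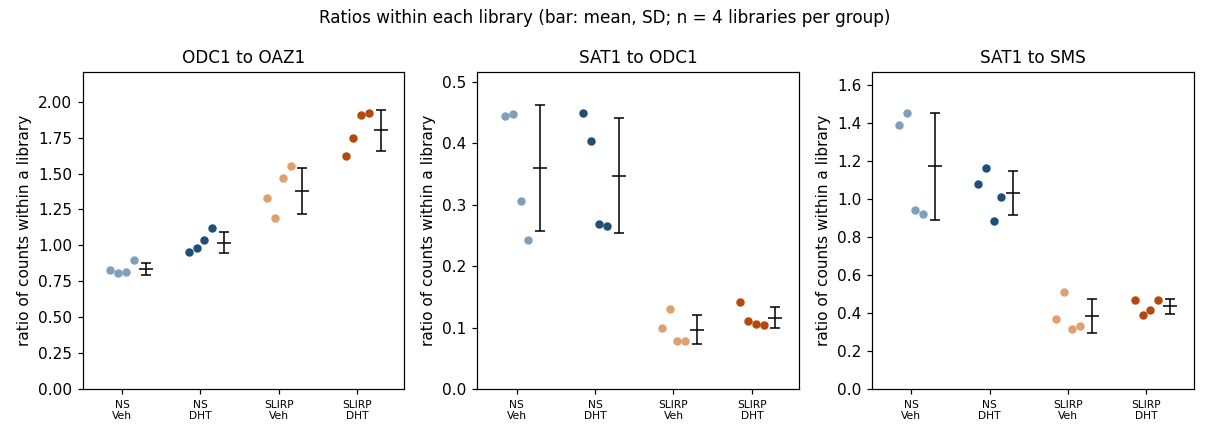
Ratio of estimated counts within each library (linear axes from 0) for ODC1 to OAZ1, SAT1 to ODC1 and SAT1 to SMS in the 4 groups, with group mean and SD. ODC1 to OAZ1 climbs from a mean of 0.837 in NS-Veh to 1.8 in SLIRP-1nM DHT, and SAT1 to ODC1 drops from 0.36 in NS-Veh to 0.0967 in SLIRP-Veh.

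In NS cells, DHT raised SRM and no other member passed. Of 10367 genes tested over the 8 NS libraries, 0.849% were called higher and 0.463% lower, and the groups did not overlap for 3 of the 8 members tested (SRM, AMD1 and OAZ1) against 8.77% of genes. SRM was at 66, 95, 104 and 111 CPM in NS-Veh and at 127, 153, 137 and 165 CPM in NS-1nM DHT. All 4 DHT libraries lay above all 4 vehicle libraries, the lowest of which, NS-Veh replicate 1, held 33 counts of SRM. The rise was 1.48-fold (log2 fold change 0.56, SE 0.119, edgeR adjusted p = 0.00469). SRM is in the list of androgen-regulated genes that the study chose on these same libraries, so its call is not independent of that choice. The call was lost without NS-Veh replicate 1, 2 or 3 or NS-1nM DHT replicate 2 or 4 (log2 fold change 0.47 to 0.60, edgeR adjusted p 0.0145 to 0.0254), and without both NS-Veh replicates 1 and 2 (0.45, edgeR adjusted p = 0.0582). Within replicates 1 and 2 the value was 0.83 and within replicates 3 and 4 it was 0.49 (edgeR adjusted p = 0.0165 and 0.0309), and DESeq2 gave an adjusted p of 0.0143.

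AMD1 was at 824 to 976 CPM in NS-Veh and at 1220, 1190, 998 and 1000 CPM in NS-1nM DHT, without overlap. Its log2 fold change of 0.28 (SE 0.0724, edgeR adjusted p = 0.0303) did not pass at 0.01. OAZ1 was at 446 to 482 CPM in NS-1nM DHT, below the NS-Veh libraries, with a log2 fold change of -0.20 (SE 0.0688, edgeR adjusted p = 0.129). For ODC1, the value was 0.09 (95% confidence interval -0.08 to 0.25, edgeR adjusted p = 0.702), and the groups overlapped. SMS gave 0.20 (-0.01 to 0.40), SAT1 0.13 (-0.13 to 0.39), AZIN1 0.04 (-0.13 to 0.21) and OAZ2 -0.01 (-0.23 to 0.22) with edgeR. The median log2 fold change was 0.11 over the members tested and 0.00 over all genes.

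In cells with SLIRP siRNA no member passed in the comparison of DHT with vehicle, where edgeR called 0.636% of 10684 genes higher and 0.534% lower. At an unadjusted p under 0.05 the count was 4 of 8 members (SAT1, SMS, SRM and ODC1) and 1663 of all genes tested, and DESeq2 called no member. With replicates 1 and 2 against 3 and 4 as a covariate, an alternative chosen after seeing the data, edgeR called ODC1 (adjusted p = 0.00608) and SAT1 (adjusted p = 0.00259) higher. SAT1, at 55 to 67.3 CPM in vehicle and 80.4 to 97.8 CPM in DHT, did not overlap and had a log2 fold change of 0.60 (SE 0.162, edgeR adjusted p = 0.0324). SMS, at 132 to 174 CPM in vehicle and 195 to 209 CPM in DHT, did not overlap either (0.35, SE 0.102, edgeR adjusted p = 0.045). No more members had groups apart, against 8.4% of genes. The value was 0.42 for SRM (95% confidence interval 0.17 to 0.68, edgeR adjusted p = 0.0545) and 0.29 for ODC1 (0.11 to 0.48, edgeR adjusted p = 0.0744). The median log2 fold change was 0.22 over the members tested and 0.00 over all genes.

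The test of the difference in DHT response between the siRNAs called 0 members and 0% of the 10684 genes with edgeR, and DESeq2 called no member. At an unadjusted p under 0.05, 388 genes passed, among them SAT1, with a difference of 0.47 on the log2 scale (95% confidence interval 0.05 to 0.89, edgeR adjusted p = 1). This difference dropped to 0.28 without NS-Veh replicates 1 and 2. For ODC1 the difference was 0.20 (95% confidence interval -0.07 to 0.47), for SRM -0.15 (-0.52 to 0.22) and for SMS 0.15 (-0.15 to 0.44). SRM thus passed in NS and not in SLIRP siRNA cells without a difference between them that passed a test. The comparisons share groups: the siRNA effects and the DHT effects both draw on NS-Veh, so their values are given side by side only.

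**Figure D4:**
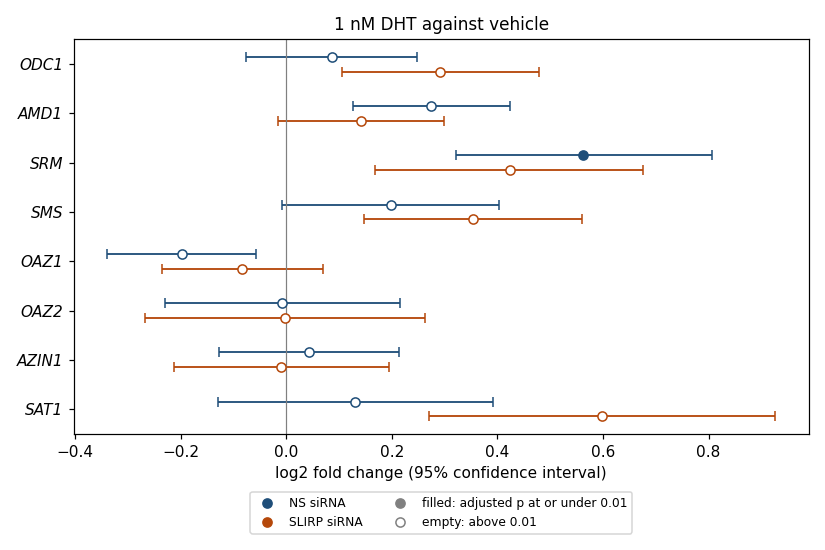
Log2 fold change of 1 nM DHT against vehicle (points, with 95% confidence intervals) for the 8 members tested, in NS and in SLIRP siRNA cells, where filled points passed an adjusted p of 0.01. SRM in NS, at 0.56, is the filled point, and the intervals of the siRNAs overlap for each gene.

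The genes around the pathway were described from lists of 28 genes, 21 of which could be tested over all 16 libraries, with 4 called higher and 7 lower in SLIRP siRNA cells, beside 17.8% and 17.4% of all genes, and a median log2 fold change of -0.24. In the supply of ornithine and arginine, the arginine transporter SLC7A1 rose from 149 ± 17.6 CPM in NS-Veh to 240 ± 19.2 CPM in SLIRP-Veh (SD, n = 4; log2 fold change over all libraries 0.74, edgeR adjusted p = 8.7e-09). Mitochondrial arginase ARG2, which makes ornithine, fell by 0.54 (edgeR adjusted p = 0.000441). Of 3 genes of AdoMet supply tested, the regulatory subunit MAT2B fell by 0.63 (edgeR adjusted p = 9.07e-05), and MAT2A (0.07) and AHCY (0.10) did not pass.

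Of the 6 genes of methionine salvage, which recycles the methylthioadenosine left by spermidine and spermine synthesis, APIP (log2 fold change 1.02) and ADI1 (0.36) rose and ENOPH1 (-0.56) fell, with edgeR adjusted p of 1.69e-05, 0.000986 and 2.01e-05. Of 4 genes of hypusination, the modification of translation factor eIF5A that uses spermidine, EIF5A fell by 0.74 (edgeR adjusted p = 1.56e-06), from 247 ± 23.1 CPM in NS-Veh to 149 ± 36.1 CPM in SLIRP-Veh. The modifying enzymes DHPS (-0.22) and DOHH (0.33) did not pass. Among transport genes, ATP13A3 rose by 0.41 while the lysosomal polyamine exporter ATP13A2 and SLC12A8 fell by 0.62 and 0.64 (edgeR adjusted p of 0.000104, 0.000476 and 0.000155). Of the paralogs, OAZ3 fell by 0.82 (edgeR adjusted p = 0.00559) from 12.5 ± 2.21 CPM in NS-Veh, and SAT2, the relative of SAT1, was at -0.40 (edgeR adjusted p = 0.016). OAZ3 had few counts, 165 over all 16 libraries, at 2.69 to 18.3 CPM. It was not called in vehicle (edgeR adjusted p = 0.018) or in DHT (edgeR adjusted p = 0.214).

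In vehicle 4 of 22 such genes were called higher and 4 lower, beside 11.8% and 9.95% of all genes, and in DHT 4 higher and 5 lower, beside 12.8% and 11.6%. With DHT in NS cells ARG2 alone was called, from 167 ± 14.2 to 249 ± 41 CPM (log2 fold change 0.59, edgeR adjusted p = 0.000539), and it too is in the androgen list chosen on these libraries. In SLIRP siRNA cells DHT changed none of the 22 at that threshold with edgeR (ARG2 0.33, edgeR adjusted p = 0.15).

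**Figure D5:**
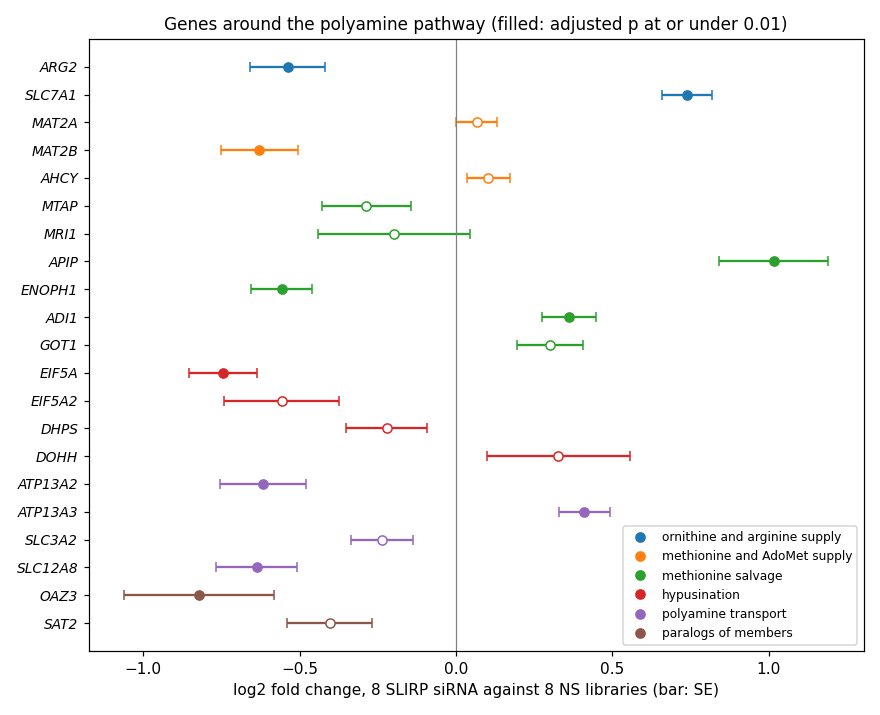
Log2 fold change of 8 SLIRP siRNA against 8 NS libraries (points, with SE) for the 21 tested genes around the pathway, coloured by list, where filled points passed an adjusted p of 0.01. APIP, at 1.02, and SLC7A1, at 0.74, lie highest, and OAZ3, at -0.82, and EIF5A, at -0.74, lowest. OAZ3 had few counts, 165 over all libraries.

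The genes whose level over the 16 libraries was most like a called member were found by the root mean square difference of centred log2 CPM among 2690 genes. For ODC1 they were LDHA (0.131), INSIG1 (0.137) and MTCH2 (0.139), where the SD of ODC1 itself was 0.352. For SAT1, with an SD of 0.646, they were RPRD1A (0.232), SC5DL (0.233) and RCN1 (0.235). NUP62 (0.19), ENO1 (0.202) and DSEL (0.211) came nearest to SRM (SD 0.37). HSPD1 (0.118), PSMB2 (0.126) and YWHAG (0.127) came nearest to SMS (SD 0.246), and PFKL (0.104), STT3A (0.114) and TC2N (0.132) to OAZ2 (SD 0.198).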

How the data were processed

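RNA of 16 LNCaP libraries was sequenced as single reads, and the authors used hg19 as reference. The authors deposited estimated counts per gene, rounded to whole numbers, and the submitters' processing notes name CASAVA and RSEM. The aligner, the annotation and the use of strand are not given in the sources used here. A second table that the authors deposited lists a normalized score for 13148 genes, which matches the estimated counts over the upper quartile of the library times 1000 (to 1.01 times for the members tested), and it was used in an alternative only.

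The 29 entries without a symbol, at most 0.042% of a library, stayed in the library totals and, where they passed the filter, in the fits. They were left out only of the search for genes most like a called member. Counts were analysed in R 4.3.3 with edgeR 4.0.16 (TMM, filterByExpr, glmQLFit, glmQLFTest), p-values adjusted by Benjamini-Hochberg across every gene in the fit, with a threshold of 0.01. SLIRP siRNA against NS used all 16 libraries with no covariate, DHT in NS the 8 NS libraries, and the rest were contrasts of a 4-group model. CPM used TMM factors. A count of 3 in a library is the floor. The Poisson intervals of the pooled levels of SMOX and PAOX cover counting error only. Confidence intervals of fold changes come from the edgeR fits and their SE, and so include the spread between libraries. The methods of the study give 2 biological replicates from each of 2 experiments without saying which numbers belong together, so replicates 1 and 2 and replicates 3 and 4 are not called experiments here. Libraries of 1 group differed by 1.21 to 2.37 times the chi-square of counting noise, so none was merged. In NS-Veh this value was 1.24 for replicates 1 and 2 and 1.38 for 3 and 4, against 1.45 to 1.7 across. In NS-1nM DHT it was 1.22 and 1.3 against 1.53 to 1.91. In SLIRP-Veh it was 1.95 and 1.21 against 1.53 to 2.28, and in SLIRP-1nM DHT 1.53 and 1.78 against 1.78 to 2.37. The main fits treated all libraries of a group as independent.

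The alternatives were DESeq2 1.42.0, limma 3.58.1 on log2 of the normalized value plus 1, other normalizations, filters, covariates and thresholds, and leaving out libraries. The methods were tested on simulated data. Gene positions and lengths are from GENCODE on GRCh37 (hg19), and promoters from RefSeq on GRCh38.p14. The named genes are the 10 members, listed pathway genes called in some comparison, and for each called member the 3 genes of mean count at least 100 nearest in centred log2 CPM (prior count 2). Members, lists and tests were chosen with earlier results of these data known. Python 3 and matplotlib drew the figures.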

Additional observations from a re-analysis of the deposited data

Results flagged for a closer look

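ODC1 in NS-Veh replicate 4, at 505 CPM, stood apart from the other NS-Veh libraries, which lay between 418 and 427 CPM. The gap was 0.894 of the range of the group, over the 95% critical value of Dixon's test for 4 samples. SAT1 in SLIRP-Veh replicate 2, at 67.3 CPM, stood apart from the other SLIRP-Veh libraries at 55 to 57 CPM, with a gap of 0.843 of the range. Of 40 groups of 4 values checked, 2 stood apart, and chance gives about 1 in 20, or 2. Without NS-Veh replicate 4 or SLIRP-Veh replicate 2, ODC1 and SAT1 kept their siRNA calls.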

How the results depend on the processing

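The 8 members tested and all genes were recomputed under each alternative, and no fold change of SMOX or PAOX is among the values that follow. Of 1320 values over 48 results, 1189 kept their direction and side of the threshold. With direction kept, 35 lost a call and 36 gained one, whatever the size of the fold change. The other 60 reversed direction, none of them a called value in the main fit. The siRNA calls of ODC1 and SAT1 held in every alternative run, over all libraries at log2 fold changes of 0.53 to 0.65 for ODC1 and -1.36 to -0.86 for SAT1. The OAZ2 call was lost in 22 of its 29 alternatives. The use of replicates 1 and 2 only, of replicates 3 and 4 only, of these 2 sets as a covariate, and the removal of both shallow NS-Veh libraries (replicates 1 and 2) were chosen after seeing the data. The causes were not tested, except that fewer libraries or another threshold are part of the alternative itself.

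Genes called between the siRNAs over all libraries numbered 3581, and 2057 within replicates 1 and 2 and 2128 within replicates 3 and 4. In vehicle they numbered 1297 and 1465 within these sets, and in DHT 1569 within replicates 3 and 4. Members called over all libraries numbered 5 of 8 at an FDR of 0.05 and 5 of 8 with treatment as a covariate, where 4748 and 3975 of 10167 genes were called. For DHT in NS, 87 genes were called with DESeq2, 27 with limma, 236 with no filter, 272 at an FDR of 0.05, 75 within replicates 1 and 2, 293 with the sets as a covariate and 69 without both shallow libraries. Members called there were 0 with DESeq2, limma, in either set and without both shallow libraries, and 2 with no filter, at an FDR of 0.05 and with the sets as a covariate. For DHT in SLIRP siRNA cells, 220 genes were called with no filter, 309 at an FDR of 0.05, 62 with limma, 75 and 73 within the sets and 201 with the sets as a covariate. Members called there were 1 with no filter and 2 at an FDR of 0.05 and with the sets as a covariate. For the difference between the siRNAs, 11 genes were called with no filter, 1 within replicates 1 and 2 and 3 within replicates 3 and 4. Leaving out each library gave 83 to 113 genes and 0 to 1 members for DHT in NS, 73 to 120 genes for DHT in SLIRP siRNA cells and 0 to 1 genes for the difference.

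With the replicate block, 270 genes and 2 members (SRM and AMD1, the latter at edgeR adjusted p = 0.00147) were called for DHT in NS, and 2 members for DHT in SLIRP siRNA cells (ODC1, 0.00557, and SAT1, 0.00363). The block ended the OAZ2 call (edgeR adjusted p = 0.0146) and added OAZ1 in vehicle. Same-numbered libraries of paired groups had correlated deviations of 0.000111 to 0.201 over 6965 genes, not all above 0.1, so the numbers were not taken as a pairing. The mean correlation was 0.0295 to 0.132 between libraries of the same set (replicates 1 and 2, or 3 and 4) and -0.13 to -0.0289 between sets. Deviations were taken from the group mean, which forces the value between sets close to the negative of that within. The negative values are thus no second observation. Of 8 libraries, 3, 5, 5 and 3 correlated best with their own number in the 4 pairs of groups.

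The largest reversed value was 0.25, for AZIN1 in the difference between the siRNAs within replicates 1 and 2, where the main value was -0.05. OAZ2 for DHT in NS was 0.003 with DESeq2, 0 with the replicate block, 0.064 with limma, 0.004 in the 4-group model, 0.20 within replicates 1 and 2, 0.007 with the sets as a covariate and -0.063 to 0.038 leaving out each library. For DHT in SLIRP siRNA cells OAZ2 was 0.004 with DESeq2 and with no filter, 0.01 with RLE factors and without both shallow libraries, 0.14 within replicates 3 and 4 and -0.068 to 0.12 leaving out each library, and AZIN1 was 0.01 with DESeq2, 0.004 with RLE factors, 0.12 within replicates 1 and 2, 0.002 without both shallow libraries and -0.12 to 0.09 leaving out each library. In the difference OAZ2 was 0.012 with RLE factors, 0.004 with no filter, 0.24 within replicates 3 and 4, 0.10 without both shallow libraries and -0.07 to 0.13 leaving out each library, and AZIN1 was 0.25 within replicates 1 and 2 and -0.17 to 0.052 leaving out each library. Within replicates 1 and 2, OAZ2 was 0.014 for siRNA in vehicle, AMD1 -0.04 and AZIN1 0.049 for siRNA in DHT, and AZIN1 -0.14 and SAT1 -0.006 for DHT in NS. AZIN1 for DHT in NS was -0.006 to 0.10 leaving out each library. At depths of 436353 to 1689708 counts, SMOX and PAOX fell below the filter on low counts.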
